A study of Mus musculus with 7 samples.

Results

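The genes described here encode mucins and the Golgi glycosyltransferases that build sugar chains on mucins, other glycoproteins and glycolipids. They were chosen by gene symbol alone: mucins (Muc genes), the transferases that start mucin-type O-glycans (Galnt), branching enzymes (Gcnt and Mgat), enzymes that add galactose or N-acetylglucosamine (B4galt, B3galt and B3gnt), sialyltransferases (St3gal, St6gal, St6galnac and St8sia) and fucosyltransferases (Fut). The rule found 80 genes among the 17096 genes measured. RNA levels were measured with 7 Affymetrix arrays, each hybridised with RNA of mouse mammary cells sorted as 1 of 3 kinds. Embryonic cells (3 arrays, of 2000, 2000 and 813 cells) came from Lgr5-IRES-GFP female embryos at embryonic day 14 and were sorted for high CD49f, the integrin encoded by Itga6, and high GFP under the control of Lgr5. The embryonic cells were pooled over the female embryos of a litter, and the design text can be read as a litter for each replicate or as the same litter for all. Adult luminal cells (2 arrays) were YFP+ cells of K8CREERT2/RosaYFP mice and adult basal cells (2 arrays) were YFP+ cells of K5CREERT2/RosaYFP mice, each 8 weeks after tamoxifen, so that a keratin promoter decided which cells carried the label. The labels mark the adult arrays as analysed again, and do not give the age of the adult mice or say whether adult replicates came from separate animals. The p-values therefore measure only the spread between these arrays, whose small number sets how precise each value can be.

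Mucins are long glycoproteins whose serine- and threonine-rich stretches carry dense O-linked sugar chains. Membrane-bound mucins coat the apical face of secretory epithelia, and in the mammary gland Muc1 is carried into milk on the fat globule membrane. A Galnt enzyme starts an O-glycan, galactosyl- and N-acetylglucosaminyltransferases lengthen or branch it, and sialic acid or fucose usually ends it. The same end-capping enzymes also act on N-glycans and, in some cases, on glycolipids, for which sugar nucleotides must first be made and carried into the Golgi.

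As deposited, after the submitters' processing, the arrays were alike in overall signal, which is not read as a measure of array quality. Most luminal and basal markers differed between the adult cells in the direction of their labels. Array medians of log2 intensity lay between 5.05 and 5.08, and 46.6% to 48.6% of genes per array lay above a background level of 5.82. To set that level, 98 probe sets of genes typical of other organs were ranked and the 95th percentile taken. Of 14 luminal markers 11 changed, all higher in luminal cells, and of 13 basal markers 10 changed, all higher in basal cells. A gene is called changed here when its luminal and basal means differed by 2-fold or more and limma gave a Benjamini-Hochberg adjusted p over all genes below 0.05. Krt5 stood at 9.13 and 9.56 in luminal cells, against 12.03 and 12.15 in basal cells, and Krt14 at 9.54 and 9.42, against 12.07 and 11.97. Krt8 stood at 11.05 and 11.03 in luminal cells, against 10.69 and 10.59 in basal cells, and Krt18 at 10.77 and 10.81, against 10.14 and 10.07. Neither changed: Krt8, the keratin of the luminal label, differed by 0.40 (limma adjusted p = 0.0750) and Krt18 by 0.68 (0.0186), both under 2-fold. Most endothelial, fibroblast and leukocyte markers also had higher means in basal cells. The summed intensity of 8 endothelial markers was 344 and 660 in luminal cells, against 961 and 1576 in basal cells, and 1 of the 8 changed. That of 10 fibroblast markers was 2807 and 4481 in luminal cells, against 6929 and 8148 in basal cells, and 3 of the 10 changed. Of 8 leukocyte markers none changed in limma (1 at an unadjusted p under 0.05), with summed intensities of 236 and 409 in luminal cells, against 420 and 523 in basal cells. Means were higher in basal cells for 7 of the 8. Ptprc, between 2.73 and 3.18 on the adult arrays, lay below the background level and cannot show a difference in leukocytes. Only 2 of the 8 lay above background: Lyz2, at 3.92 and 6.23 in luminal cells, against 6.32 and 7.05 in basal cells, and Cd74, at 6.14 and 7.25, against 7.26 and 7.71. Of 7 secretory markers 2 changed, Csn1s1 and Ltf, both higher in luminal cells. The summed intensity of the 7 was 2847 and 2224 in luminal cells, against 1777 and 1900 in basal cells. Of the 7, 6 had higher means in luminal cells, and Lcn2 stood at 9.92 and 9.77, against 9.90 and 9.91 in basal cells. Muc1 and Muc15 were higher on luminal replicate 1 than on 2, and a link of either with these markers was not tested. Both erythroid markers had higher means in luminal cells, with sums of 4469 and 3597, against 2477 and 3683 in basal cells, and neither changed in limma (1 at an unadjusted p under 0.05). Col1a1 stood at 8.58 and 10.41 in luminal cells, against 10.81 and 10.93 in basal cells, and Pecam1 at 6.09 and 7.29, against 7.95 and 8.69. Fewer cells of a type and less RNA per cell cannot be told apart in such pooled samples, and the part of these markers in the results below was not tested. In both lineages replicate 2 had the higher endothelial, fibroblast and leukocyte sums, so the order of the replicates cannot tell these cell types apart. Basal replicate 2 was the higher one for B4galt2, B4galt5 and Fut2 and the lower one for B4galt6 and St3gal6. On luminal replicate 2, B4galt5, B4galt6 and Fut2 were the higher and B4galt2 and St3gal6 the lower of the pair.

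Between luminal and basal cells 8 of the 80 genes changed. Higher in luminal cells were the mucin genes Muc15 and Muc1 and the N-glycan branching gene Mgat5. Higher in basal cells were the galactosyltransferase genes B4galt6, B4galt5 and B4galt2, the sialyltransferase gene St3gal6 and the fucosyltransferase gene Fut2. Among all genes tested 6.81% changed, 3.57% higher in luminal and 3.24% higher in basal cells. Of the 80, 3.75% were changed and higher in luminal cells and 6.25% in basal cells, so the luminal share lies near that of all genes, and the basal share was not tested against it. The median log2 difference of the 80, luminal minus basal, was -0.02, against 0.02 over all genes. In 41 of the 80 the means of both lineages lay below the background level, and of the other 39 genes 7 changed, 3 higher in luminal and 4 higher in basal cells. Of all genes above background 12.3% changed, 6.36% higher in luminal and 5.93% higher in basal cells. For 47 of the 80 every luminal value lay on the same side of every basal value, as it did for 59.2% of all genes. The median gap between replicates over the 80 was 0.13 in luminal and 0.16 in basal arrays, beside a median absolute luminal minus basal difference of 0.21, and over all genes these were 0.14, 0.16 and 0.21. Over the 39 genes above background they were 0.16, 0.24 and 0.47. A further 8 of the 80 had an adjusted p under 0.05 in limma but differed by less than 2-fold, and are given as not passing.

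**Figure D1:**
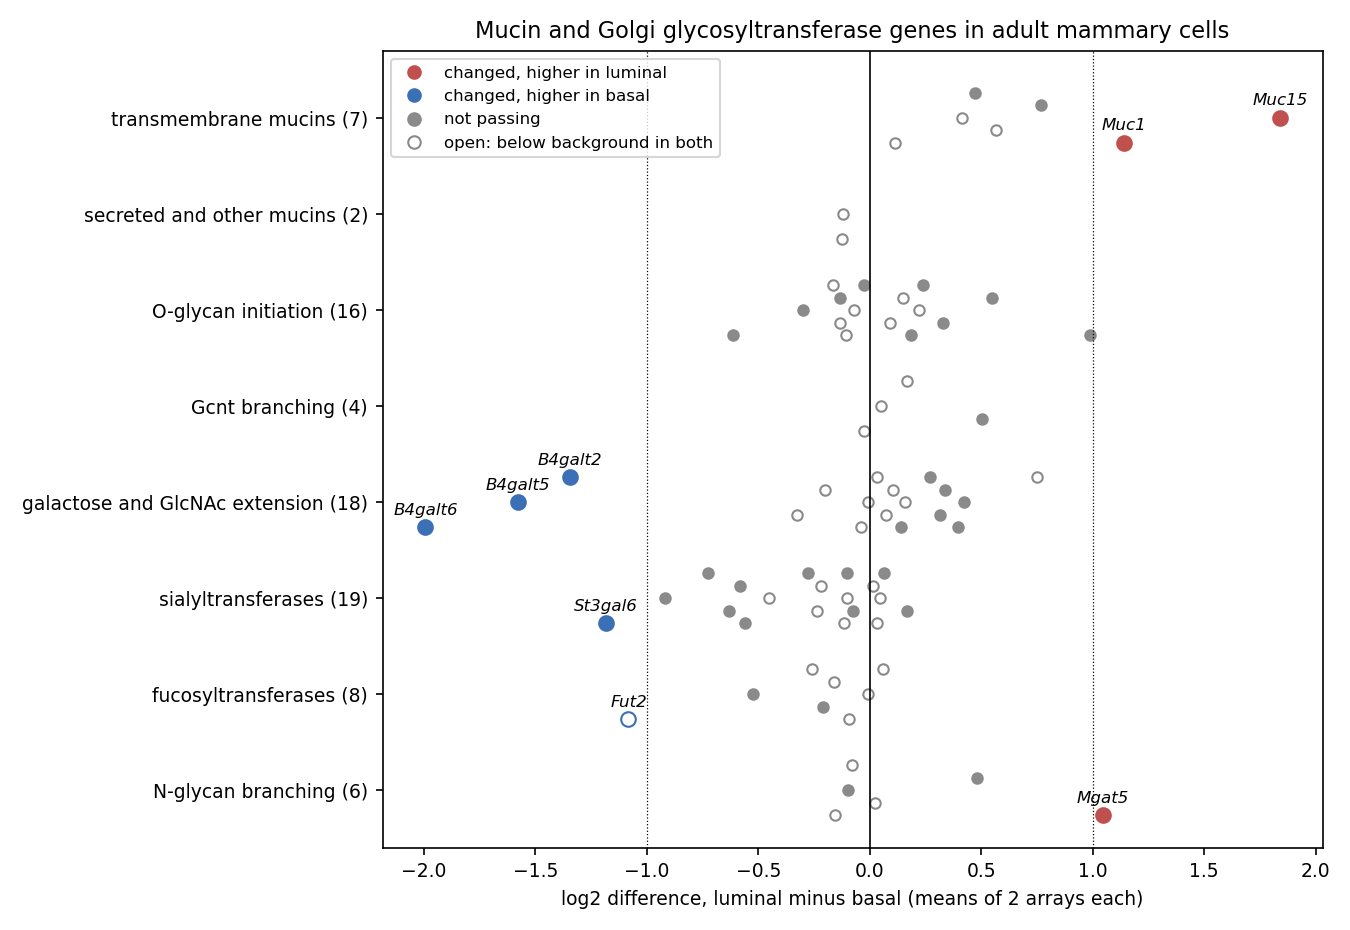
Log2 difference, luminal minus basal, of each of the 80 genes (1 dot a gene, means of 2 arrays each), by enzyme group with the number of genes in parentheses. Dotted lines mark a 2-fold difference, coloured dots the 8 changed genes and open dots genes below the background level in both lineages. The transmembrane mucins all lie right of 0, and the 3 changed B4galt genes lie between -1.99 and -1.35.

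Promoters of 4 of the changed genes are shown because these genes moved in opposite directions, Muc1 and Mgat5 higher in luminal and B4galt5 and B4galt2 higher in basal cells. Each is a window from 250 bases before to 50 after the gene start, from RefSeq on build GRCm38.p6, and is printed 5′ to 3′ on the gene's strand. They lie at chr3:89228806-89229105 (plus strand, Muc1), chr1:127204736-127205035 (plus strand, Mgat5), chr2:167349129-167349428 (minus strand, B4galt5) and chr4:117883427-117883726 (minus strand, B4galt2). Capitals mark GC boxes (GGGCGG, or CCGCCC for the other strand) and TATA boxes (TATAAA, or TTTATA for the other strand). These motifs were picked after the sequences had been seen.
Muc1: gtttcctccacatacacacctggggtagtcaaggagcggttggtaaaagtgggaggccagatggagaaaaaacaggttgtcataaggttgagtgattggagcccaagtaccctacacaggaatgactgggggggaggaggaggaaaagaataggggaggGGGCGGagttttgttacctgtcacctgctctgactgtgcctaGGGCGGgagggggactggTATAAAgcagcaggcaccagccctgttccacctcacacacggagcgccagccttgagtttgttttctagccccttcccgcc
Mgat5: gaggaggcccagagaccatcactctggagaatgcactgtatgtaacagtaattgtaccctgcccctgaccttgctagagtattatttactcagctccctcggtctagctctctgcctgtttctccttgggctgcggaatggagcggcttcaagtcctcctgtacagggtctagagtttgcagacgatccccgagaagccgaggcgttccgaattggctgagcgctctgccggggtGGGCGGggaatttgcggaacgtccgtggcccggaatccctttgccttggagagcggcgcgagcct
B4galt5: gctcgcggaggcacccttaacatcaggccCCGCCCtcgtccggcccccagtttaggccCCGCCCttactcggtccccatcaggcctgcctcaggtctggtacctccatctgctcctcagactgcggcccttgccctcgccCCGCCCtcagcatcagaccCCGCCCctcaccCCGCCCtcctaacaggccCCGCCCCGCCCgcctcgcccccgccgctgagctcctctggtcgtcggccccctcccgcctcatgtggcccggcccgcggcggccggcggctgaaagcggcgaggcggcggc
B4galt2: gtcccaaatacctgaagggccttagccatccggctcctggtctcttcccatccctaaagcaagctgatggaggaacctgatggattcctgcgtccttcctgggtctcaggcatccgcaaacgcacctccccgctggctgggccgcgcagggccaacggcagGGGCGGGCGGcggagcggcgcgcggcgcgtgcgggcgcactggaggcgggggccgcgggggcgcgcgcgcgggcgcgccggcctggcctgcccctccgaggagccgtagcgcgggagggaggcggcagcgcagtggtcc
The Muc1 window held 2 GC boxes and a TATA box shortly before the start, and that of Mgat5 held 1 GC box. The window of B4galt5 held 7 GC boxes and that of B4galt2 held 2, with overlaps in each, and neither held a TATA box. G and C made up 55.7% of the Muc1 window, 58.0% of Mgat5, 75.0% of B4galt5 and 73.7% of B4galt2. Of all 32851 windows in the table, 35.7% held a GC box and 13.6% a TATA box. Of the 80 windows of 58 matched genes of the families, 51.3% held a GC box and 6.25% a TATA box. The matches are descriptions of letters in the window.

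Transmembrane mucins all had higher means in luminal cells. For each of the 7 measured, the luminal arrays lay above the basal ones without overlap (33.9% of all genes showed this in the luminal direction). In 3 of the 7 (Muc3, Muc4 and Muc16) the means of both lineages lay below background. Muc3, named here after its values were seen, stood at 4.31 and 4.14 in luminal cells, against 4.10 and 4.12 in basal cells (0.12 ± 0.13). Of the 7, 2 changed, and their median difference was 0.56. Muc1, the mucin of the apical membrane and the milk fat globule, stood at 8.95 and 8.40 in luminal cells, against 7.36 and 7.72 in basal cells. Its difference was 1.14 ± 0.23 (SE, n = 2 and 2 arrays, limma adjusted p = 0.0255), a 2.2-fold higher level in luminal cells. Muc15, a membrane mucin known from the bovine milk fat globule, stood at 6.25 and 5.71 in luminal cells, against 3.93 and 4.35 in basal cells. Its difference was 1.84 ± 0.23 (limma adjusted p = 0.00839). Of the 7 arrays, luminal replicate 1 alone read Muc15 above the background level, so neither the size of that difference nor its rank among the genes is exact.

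Among the other membrane mucins, Muc20 stood at 6.76 and 6.54 in luminal cells, against 6.01 and 5.76 in basal cells. Its difference of 0.77 ± 0.15 (limma adjusted p = 0.0261) was under 2-fold, and a probe set of the gene that lay below the background level gave 0.75. Muc13 had 0.47 ± 0.16 (adjusted p = 0.107). Muc4 (0.56 ± 0.14) and Muc16 (0.41 ± 0.13), mucins of many wet epithelia, lay below the background level in both lineages. Muc4 had 4.77 and 4.54 in luminal cells, against 4.17 and 4.01 in basal cells. Its other probe set, also below background, gave 0.05. The secreted mucins Muc5ac and Muc5b, which form gels in airway and stomach mucus, had differences of -0.12 each and also lay below background. The call of Muc1 was lost without luminal replicate 1 (0.86, limma adjusted p = 0.119), without basal replicate 1 (0.96, 0.0473), in a fit of all 7 arrays (1.14, 0.0660) and in a test against a 1.2-fold difference (0.0584). That of Muc15 was kept in all 16 alternatives that could be run for it.

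The Galnt enzymes, which attach the first sugar of a mucin-type chain, showed no common direction, with 8 positive and 8 negative differences. None of 16 measured genes changed in limma (3 at an unadjusted p under 0.05), 9 of them lay above background in a lineage, and their median difference was 0.03. Galnt1, a widely expressed family member, stood at 7.43 and 7.26 in luminal cells, against 6.40 and 6.31 in basal cells. The arrays did not overlap, and its difference of 0.99 ± 0.13 (limma adjusted p = 0.00921) fell just short of 2-fold, at 1.98-fold. Its other probe set gave 0.50. Galnt2, also widely expressed, stood at 7.78 and 7.59 in luminal cells, against 8.12 and 8.47 in basal cells (-0.61 ± 0.17, adjusted p = 0.0591). All 3 of its probe sets were on the basal side, from -0.61 to -0.45. Galnt3 had 5.83 and 5.95 in luminal cells, against 5.97 and 5.44 in basal cells (0.19 ± 0.20), and another of its probe sets, with the means 6.29 and 5.49, gave 0.80. Galnt1 was called without luminal replicate 2 (1.08), without basal replicate 1 (1.04) and when arrays were centred on their medians (1.00).

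Branching of O-glycans by Gcnt enzymes showed small differences. None of 4 genes changed in limma (1 at an unadjusted p under 0.05). Gcnt2, the enzyme of I-antigen branches, stood at 7.34 and 7.38 in luminal cells, against 6.83 and 6.88 in basal cells. These arrays did not overlap, and the difference of 0.50 ± 0.12 (adjusted p = 0.0405) was under 2-fold. Gcnt1, which branches the common O-glycan core, lay below background in both lineages (0.17 ± 0.13).

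Galactosyltransferases of the B4galt family held the largest differences on the basal side. All 7 measured lay above background, and 3 changed, all higher in basal cells. Of all genes above background 5.93% were changed and higher in basal cells, and the family was not tested as a set. B4galt6, which makes lactosylceramide, the base of most complex glycolipids, stood at 6.74 and 7.04 in luminal cells, against 8.95 and 8.82 in basal cells. Its difference was -1.99 ± 0.15 (SE, n = 2 and 2 arrays, limma adjusted p = 0.00298), a 3.98-fold higher level in basal cells. B4galt5, the other lactosylceramide synthase, stood at 6.81 and 6.90 in luminal cells, against 8.38 and 8.49 in basal cells. Its difference was -1.58 ± 0.12 (adjusted p = 0.00315), 2.99-fold. B4galt2, which galactosylates glycoproteins, stood at 6.71 and 6.55 in luminal cells, against 7.80 and 8.15 in basal cells. Its difference was -1.35 ± 0.16 (adjusted p = 0.00754), 2.54-fold.

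The 4 remaining family members had small positive differences, from 0.27 to 0.40. B4galt1, which joins alpha-lactalbumin to form lactose synthase in milk-producing cells, stood at 9.47 and 9.35 in luminal cells, against 9.09 and 8.93 in basal cells (0.40 ± 0.13, limma adjusted p = 0.0954). Its partner gene Lalba had 7.91 and 7.54 in luminal cells, against 7.37 and 6.99 in basal cells (0.54 ± 0.19, adjusted p = 0.122). The 11 measured B3gnt and B3galt genes encode enzymes that add N-acetylglucosamine or galactose. None of the 11 changed in limma (1 at an unadjusted p under 0.05), and 9 lay below background in both lineages. The gene at that p was B3gnt7, named here after its values were seen, with 5.65 and 5.95 in luminal cells, against 5.06 and 5.04 in basal cells (0.75 ± 0.14, adjusted p = 0.0240). It lay below background by its means and differed by under 2-fold. B3galt6, an enzyme of the proteoglycan linker, had 5.97 and 5.69 in luminal cells, against 5.61 and 5.20 in basal cells (0.42 ± 0.19, adjusted p = 0.194). The calls of B4galt6 and B4galt5 were kept in all 17 alternatives. That of B4galt2 was lost without luminal replicate 1 (-1.42, adjusted p = 0.0514), without luminal replicate 2 (-1.27, 0.0508), in a fit of all 7 arrays (0.0577) and when probe sets were averaged (-0.75).

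Of the 8 changed genes, 3 were changed at more than 1 probe set, by the same thresholds in a separate fit over all probe sets. B4galt5 was changed at both of its probe sets (-1.58 and -1.48) and Mgat5 at all 3 (1.04, 1.83 and 1.12). B4galt6 was changed at 3 of 4 probe sets (-1.99, -1.72 and -2.30), and the fourth, below background in both lineages, gave -1.09. The other probe set of B4galt2 lay below background and gave -0.16. Of 5 probe sets of St3gal6, 4 lay below background, with differences from -1.16 to -0.01. Muc1, Muc15 and Fut2 had 1 probe set each. Among the 46 genes with more than 1 probe set, St3gal3 and St6galnac2 had probe sets of opposite sign above background. St3gal3, a sialyltransferase of N-glycans, gave -0.28 and 0.38, and St6galnac2, one of O-glycans, gave 0.17 and -0.41, so no direction is read for either.

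**Figure D2:**
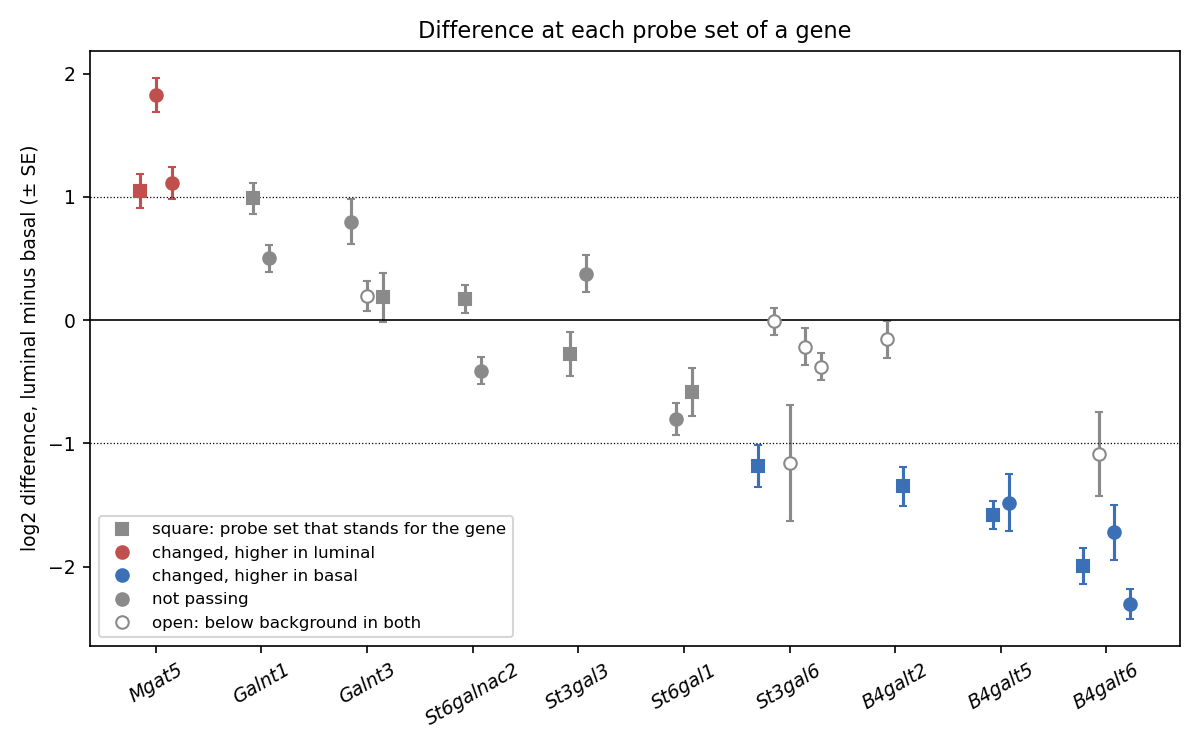
Log2 difference, luminal minus basal (± SE, 2 arrays each), at every probe set of 10 genes with more than 1. Squares are the probe sets that stand for the gene, red and blue mark changed probe sets, and open symbols lie below background in both lineages. The 3 probe sets of Mgat5 lie above 1 and 3 of the 4 of B4galt6 lie below -1.7, while those of St3gal3 and St6galnac2 lie on both sides of 0.

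Among 19 measured sialyltransferase genes 1 changed, higher in basal cells. In 14 of the 19 the difference was negative, and in 13 of 17 without St3gal3 and St6galnac2, with a median of -0.22 either way. Of all 17096 genes 7873 had a negative difference. In 8 of the 19 the means of both lineages lay below background, and some of the negative differences were small. Of the 19, 11 had lower luminal than basal values on every array (25.3% of all genes did). St3gal6, which caps lactosamine chains and helps to make selectin ligands, stood at 6.62 and 6.54 in luminal cells, against 7.98 and 7.55 in basal cells. Its difference was -1.18 ± 0.17 (SE, n = 2 and 2 arrays, limma adjusted p = 0.0123), 2.27-fold. St3gal2, a sialyltransferase of O-glycans and gangliosides, stood at 5.93 and 5.92 in luminal cells, against 6.61 and 7.07 in basal cells. Its difference of -0.92 ± 0.18 (adjusted p = 0.0247) was under 2-fold, and its other probe sets gave -0.94 and -0.50. St6galnac4, which adds sialic acid inside an O-glycan, stood at 6.68 and 6.77 in luminal cells, against 7.36 and 7.54 in basal cells (-0.73 ± 0.13, adjusted p = 0.0203).

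St6gal1, a main sialyltransferase of N-glycans, stood at 6.17 and 6.22 in luminal cells, against 6.51 and 7.04 in basal cells (-0.58 ± 0.19, limma adjusted p = 0.100). With an array left out this ran from -0.84 to -0.32, and its other probe set gave -0.80. St3gal1, which caps the common O-glycan core, stood at 9.05 and 9.04 in luminal cells, against 9.22 and 9.07 in basal cells (-0.10 ± 0.12, adjusted p = 0.661). Its other probe set, with the means 5.67 in luminal and 6.35 in basal cells, gave -0.67 ± 0.29. St3gal4 (-0.45 ± 0.14) and St8sia1, the ganglioside GD3 synthase gene (0.01 ± 0.13), lay below background in both lineages. The call of St3gal6 was lost without luminal replicate 1 (-1.22, adjusted p = 0.0757), luminal replicate 2 (-1.15, 0.0725) or basal replicate 1 (-0.97, 0.0120), and when probe sets were averaged (-0.59). St3gal2 was called without basal replicate 1 (-1.15, adjusted p = 0.00677).

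Fucosyltransferases had 1 changed gene of 8, and 6 of the 8 lay below background. Fut2, the secretor enzyme that makes H antigen on mucous surfaces, stood at 4.04 and 4.35 in luminal cells, against 5.13 and 5.42 in basal cells. Its difference was -1.08 ± 0.17 (SE, n = 2 and 2 arrays, limma adjusted p = 0.0146), but all 4 values lay below the background level, so its size is not exact. Without luminal replicate 1 (-0.93, adjusted p = 0.0950), without basal replicate 2 (-0.94, 0.0187) or in a fit of all 7 arrays (0.0937) the call was lost. Fut8, which adds the core fucose of N-glycans, stood at 6.74 and 6.84 in luminal cells, against 7.10 and 7.53 in basal cells (-0.52 ± 0.18, adjusted p = 0.102), and with an array left out its difference ran from -0.74 to -0.31. Fut11 had -0.21 ± 0.14, and Fut1, another H-antigen enzyme, -0.16 ± 0.15, below background in both lineages.

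Among 6 measured N-glycan branching genes, Mgat5 changed. Its enzyme adds a branch that is often lengthened into poly-lactosamine. It stood at 7.38 and 7.66 in luminal cells, against 6.45 and 6.50 in basal cells. The difference was 1.04 ± 0.14 (SE, n = 2 and 2 arrays, limma adjusted p = 0.0103), 2.06-fold. Mgat4a, which makes another branch, stood at 7.67 and 7.30 in luminal cells, above both basal arrays (0.48 ± 0.16, adjusted p = 0.100). Mgat4b overlapped between the lineages, at 6.66 and 6.28, against 6.23 and 6.91 (-0.10 ± 0.26). Mgat3, whose bisecting sugar blocks further branching, lay below background (0.03 ± 0.12). The call of Mgat5 was lost without luminal replicate 2 (0.90, adjusted p = 0.0595) and under quantile normalization (0.95 over 7 arrays and 0.96 over 4).

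**Figure D3:**
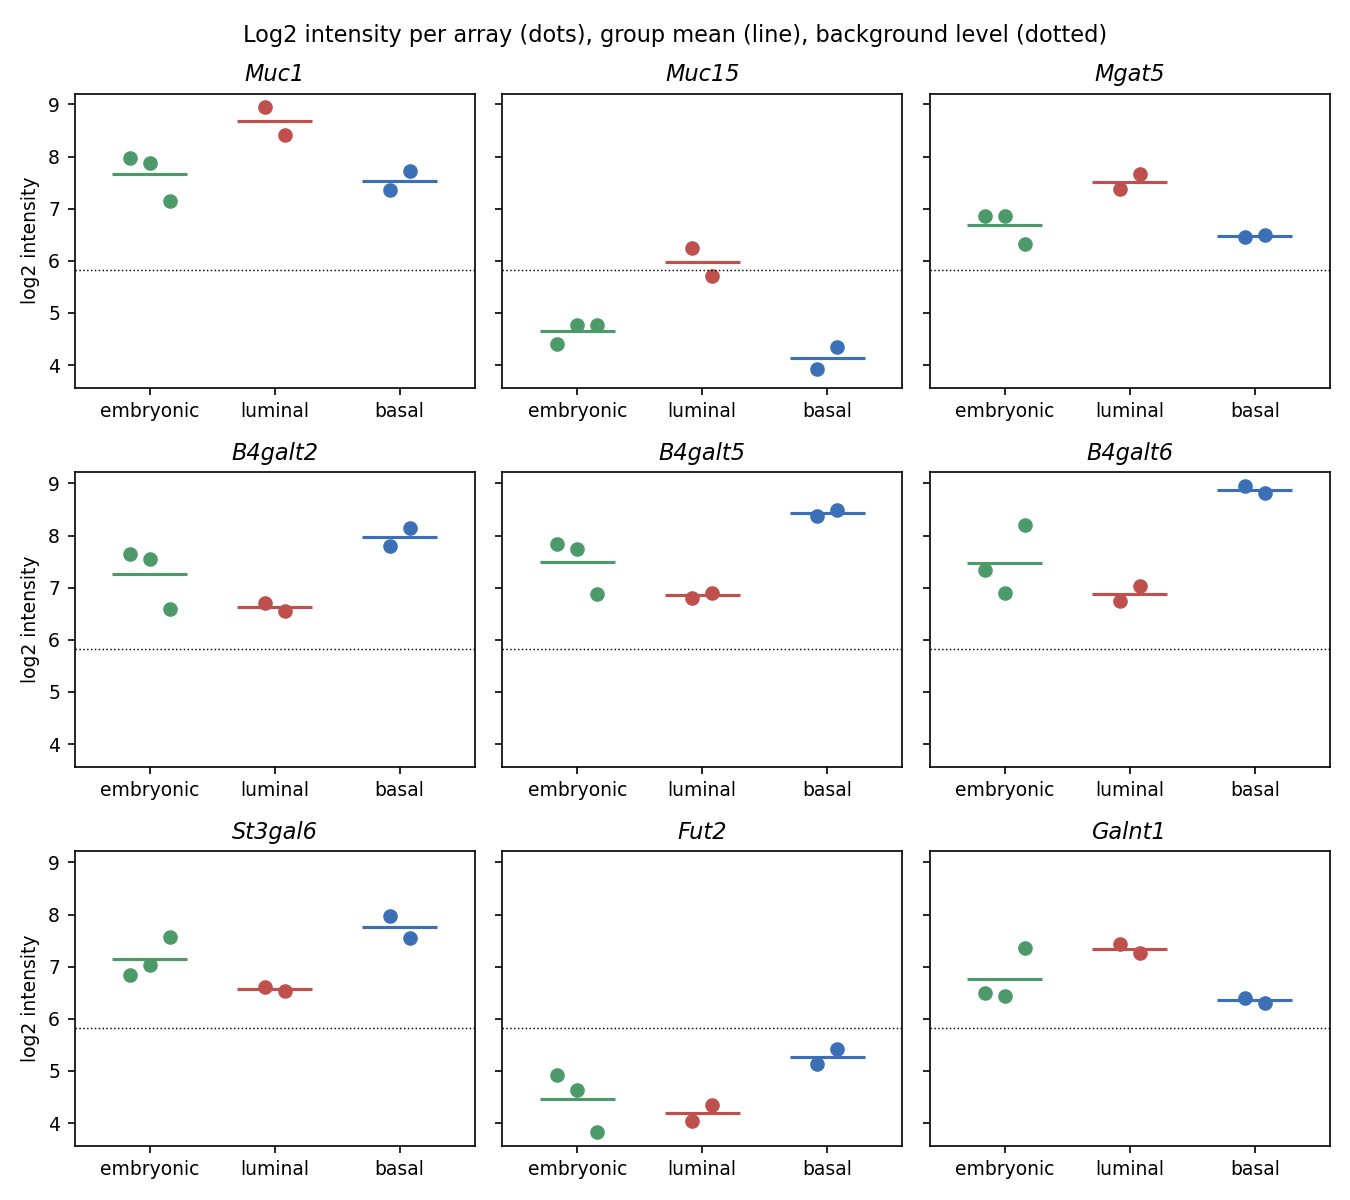
Log2 intensity on each array (dots) of the 8 changed genes and Galnt1 in embryonic, luminal and basal cells, with group means (lines) and the background level of 5.82 (dotted). Luminal and basal dots do not overlap in any panel, as was so for 59.2% of all genes. Muc15 on every array but luminal replicate 1, and Fut2 on every array, lie below the background level.

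Genes that supply the sugar donors lay mostly on the luminal side. Of 17 measured genes of sugar nucleotide synthesis and transport (of 21 listed), 3 changed, all higher in luminal cells, and all 3 act on sialic acid. That is 17.6% of the list, of which 13 genes lay above background. In the same direction 3.57% of all genes changed, and 6.36% of all genes above background. Neither the list nor its sialic acid genes were tested as a set. Nans, which makes sialic acid, stood at 8.62 and 8.79 in luminal cells, against 7.36 and 7.55 in basal cells (1.26 ± 0.14, limma adjusted p = 0.00601). Cmas, which activates it to CMP-sialic acid, stood at 9.29 and 9.04 in luminal cells, against 7.94 and 8.24 in basal cells (1.08 ± 0.16, adjusted p = 0.0133). Slc35a1, which carries CMP-sialic acid into the Golgi, stood at 6.48 and 6.29 in luminal cells, against 5.35 and 5.20 in basal cells (1.11 ± 0.14, adjusted p = 0.00800). Both basal values of Slc35a1 lay below the background level, so the size of its difference is not exact.

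Gne, which starts the pathway, stood at 7.97 and 7.80 in luminal cells, against 7.21 and 7.21 in basal cells, a difference under 2-fold (0.67 ± 0.13, limma adjusted p = 0.0221). Nanp, the phosphatase between Nans and Cmas, had 0.10 ± 0.18 and lay below background. In 13 of the 17 the luminal arrays lay above the basal ones without overlap, where 33.9% of all genes did, and the list's median was 0.65. Without luminal replicate 1 the calls of Cmas (0.95, adjusted p = 0.0920) and Slc35a1 (1.02, 0.0636) were lost and that of Nans was kept, and that of Cmas was also lost without luminal replicate 2 (adjusted p = 0.0507) or basal replicate 1 (0.93, 0.0203).

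**Figure D4:**
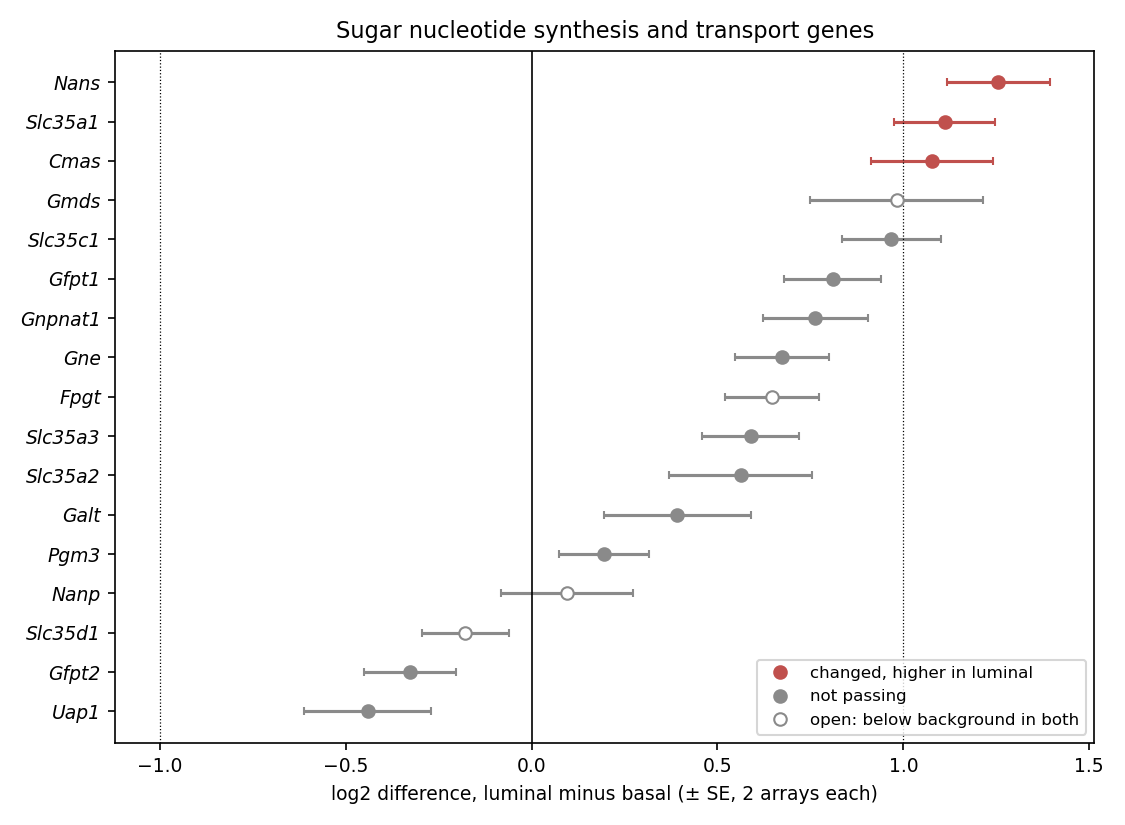
Log2 difference, luminal minus basal (± SE, 2 arrays each), of 17 genes of sugar nucleotide synthesis and transport. Red marks the 3 changed genes, open symbols genes below background in both lineages, and dotted lines a 2-fold difference. Differences run from -0.44 to 1.26, and 14 of the 17 lie above 0.

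Among 26 other measured Golgi enzymes 2 changed, in opposite directions, and the median difference was -0.02. That is 7.69% of the list, near the 6.81% of all genes that changed. Man1c1, a mannosidase that trims N-glycans, stood at 7.69 and 8.08 in luminal cells, against 6.62 and 7.14 in basal cells (1.00 ± 0.23, limma adjusted p = 0.0358). Chst2, which adds sulfate to N-acetylglucosamine, stood at 6.52 and 7.05 in luminal cells, against 7.75 and 7.82 in basal cells (2.01-fold higher in basal cells, adjusted p = 0.0252). C1galt1, which adds galactose to the first sugar of an O-glycan, stood at 6.98 and 6.96 in luminal cells, against 6.26 and 6.30 in basal cells, under 2-fold (0.69 ± 0.12, adjusted p = 0.0174). Its chaperone gene C1galt1c1 lay below background (0.70 ± 0.23). Neither call was stable: without luminal replicate 1 Man1c1 had an adjusted p of 0.0958 and Chst2 one of 0.102 (-0.74), and other alternatives gave 0.00962 to 0.159 for Man1c1 and 0.0126 to 0.118 for Chst2. Besides that array, Man1c1 was lost without luminal replicate 2 (0.81) or basal replicate 1 (0.74), under quantile normalization (0.92 over 7 arrays and 0.93 over 4) and in the test against a 1.2-fold difference (0.0881). Chst2 was lost without basal replicate 2 (-0.97), with probe sets averaged (-0.39), with arrays centred on their medians (-0.99) and in the test against a 1.2-fold difference (0.0635).

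A further list held 23 measured genes of mucin-type or other surface glycoproteins and of mucin folding or secretion. It also held Epcam and Lalba, which are not mucin genes. Of the 23, 6 changed (26.1%, against 6.81% of all genes), 3 in each direction, and the list was not tested as a set. Podxl, the sialomucin podocalyxin, stood at 9.44 and 9.37 in luminal cells, against 7.76 and 8.11 in basal cells (1.47 ± 0.16, limma adjusted p = 0.00566). Spdef, a transcription factor of mucus-secreting cells, stood at 7.27 and 7.86 in luminal cells, against 5.75 and 5.93 in basal cells (1.73 ± 0.22, adjusted p = 0.00821). Clca1, a secreted protein of mucus, was higher in luminal cells (1.64 ± 0.26) but lay below background in both lineages. Pdpn, the mucin-type protein podoplanin, stood at 6.46 and 7.89 in luminal cells, against 10.86 and 10.51 in basal cells (-3.51 ± 0.45, adjusted p = 0.00885). That is 11.4-fold higher in basal cells, but the difference ran from -4.23 without luminal replicate 2 to -2.79 without luminal replicate 1.

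Mcam (-1.43 ± 0.27), a surface glycoprotein of endothelium and smooth muscle, and Cd34 (-1.27 ± 0.31), a sialomucin of endothelium, were also higher in basal cells. Their luminal means, 5.52 for Mcam and 5.08 for Cd34, lay below the background level, so these sizes are not exact. Basal replicate 2, with the higher endothelial, fibroblast and leukocyte sums, read 7.30 against 6.59 for Mcam and 6.84 against 5.87 for Cd34. On luminal replicate 2, also with the higher sums, Mcam stood at 5.72, against 5.32 on the other, and Cd34 at 5.07, against 5.10. The part of other cell types in the differences of Mcam and Cd34 was not tested. Agr2 (0.04) and Agr3 (0.16), which help to fold mucins, lay below background. The calls of Mcam (-1.23, limma adjusted p = 0.132) and Podxl (1.43, 0.0510) were lost without luminal replicate 1, and those of Mcam (-1.63, 0.0686) and Clca1 (1.29, 0.0527) without luminal replicate 2. Clca1 was also lost when probe sets were averaged (0.79, adjusted p = 0.0558). That of Cd34 was lost without luminal replicate 1 (0.184), luminal replicate 2 (0.162) or basal replicate 2 (-0.79), in a fit of all 7 arrays (0.151) and in the test against a 1.2-fold difference (0.0923).

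Embryonic values of these genes sat close to the midpoint of the adult means. Over the 80 genes, the embryonic mean minus the adult mean had an SD of 0.11, against 0.57 for luminal minus basal, and over all 45033 probe sets these were 0.09 and 0.49. For 73 of the 80 the embryonic mean lay between the luminal and the basal mean. This was not counted over all genes, and with SDs so alike it is not read as a trait of the 80. Values were identical on embryonic replicates 1 and 2 for 28 of the 80 genes and on all 3 embryonic arrays for 14, while no adult pair of arrays shared a value among the 80. What follows on embryonic levels is a description of the deposited table only. Within this limit, Muc1 stood at 7.97, 7.87 and 7.15 in embryonic cells and B4galt6 at 7.34, 6.90 and 8.20.

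No gene of the 80 changed against either adult lineage in limma over all 7 arrays. Against luminal cells 9 and against basal cells 5 had an unadjusted p under 0.05, and among all genes 0.0234% and 0.0702% changed. Both contrasts share the embryonic arrays. Muc15 had a difference of -1.33 against luminal and 0.51 against basal cells (adjusted p = 0.125 and 0.548), and B4galt6 one of 0.59 and -1.40 (0.616 and 0.304). The embryonic arrays also differed among themselves, with B4galt5 at 7.83, 7.75 and 6.88, B4galt2 at 7.65, 7.56 and 6.59, and St3gal6 at 6.83, 7.03 and 7.57. Since the embryonic mean sits near the adult midpoint, no array is placed nearer to either lineage from these values.

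**Figure D5:**
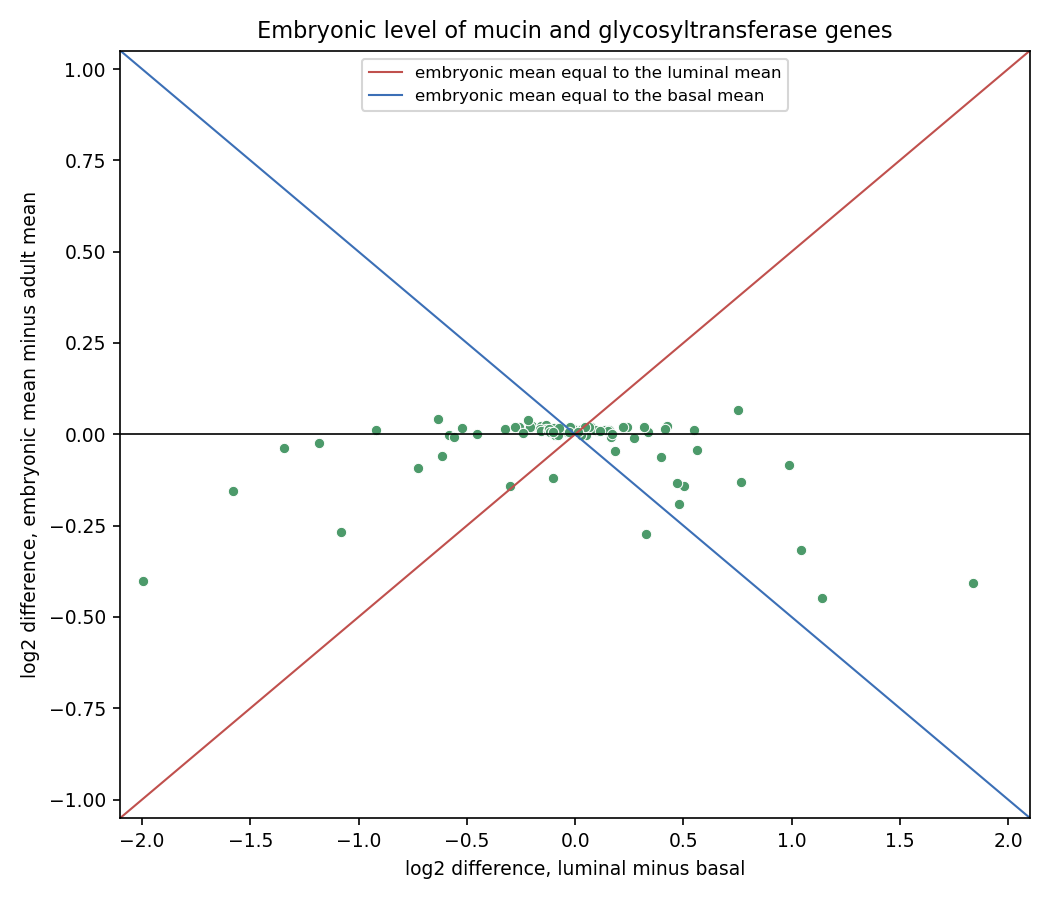
Embryonic mean minus the mean of the adult lineages (vertical axis, log2) against luminal minus basal (horizontal axis, log2), 1 dot for each of the 80 genes. The red line is where a gene would lie at the luminal mean and the blue line at the basal mean. Most dots lie near 0 on the vertical axis, and 73 of the 80 lie between the lines, which was not counted over all genes.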

How the data were processed

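RNA of the sorted cells went through whole transcriptome amplification before hybridisation, per the labels' protocols, which give the embryonic preparation for the adult samples too. The authors deposited probe set intensities on a linear scale, and RMA and affy appear, per the submitters' processing notes, among the tools. Settings, and whether embryonic and adult arrays were summarised together, are not given in the sources used here.

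Log2 was taken of each deposited intensity, because the planned test had been written for log2 values. The table has 45141 rows, of which 4 hold no values and 104 are controls, and these were not used. The platform annotation gave 1 symbol for 28895 of the 45033 probe sets used, several for 551 and none listed for 15587. By Entrez identifier, 28686 matched the RefSeq gene table, which changed 0 symbols. Each of 17096 genes was read at its brightest probe set, by the mean of all arrays.

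Luminal and basal means were fitted on the 4 adult arrays with limma 3.58.1 (R 4.3.3) and eBayes, with 2 residual and 3.73 prior degrees of freedom, and the procedure was tested on simulated data. The embryonic arrays were kept out of this fit because values are identical between embryonic replicates 1 and 2 at 37.6% of probe sets. The embryonic contrasts used all 7 arrays. Per-probe-set differences came from a separate fit of the same kind over all probe sets. It had its own variance prior and p adjustment, so its SEs and calls can differ from those by gene. Alternatives covered the arrays in the fit, normalization, probe set choice, dim genes, variance prior, array weights, fold minimum, treat, a replicate block and each array left out.

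The genes named were every changed one, up to 2 per group above background that did not pass, a short fixed list and genes whose probe sets disagree. Members and lists were chosen with earlier results of these data known. Figures were drawn with matplotlib 3.10.9.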

Additional observations from a re-analysis of the deposited data

How the results depend on the processing

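Over all genes 1165 changed, and 2879 did with no fold minimum, 2603 at 1.5-fold and 519 to 1443 with 1 adult array left out, the fewest without luminal replicate 1. Of the 80 genes, 3 were higher in luminal cells (8 with no fold minimum, 6 at 1.5-fold, 2 to 3 with an adult array left out). Of the same 80, 5 were higher in basal cells (3 with all 7 arrays or with probe sets averaged, 8 with no fold minimum or at 1.5-fold, 2 to 5 with an adult array left out, the fewest without luminal replicate 1). Of the other pathway genes 11 changed, 22 with no fold minimum or at 1.5-fold and 4 to 13 with an adult array left out. Against embryonic cells 0 of the 80 changed, and 0 to 1 did with an embryonic array left out: without replicate 3, Muc15 against luminal and B4galt6 against basal cells. The numbers 1 and 2 are shared by luminal and basal replicates, whose deviations from the group means correlated at 0.08 over all genes and 0.15 over the 8170 above background. With the number as a replicate block 1208 genes changed, 3 and 5 of the 80 did as before, and 1 gene, B4galt6, changed between embryonic and basal cells. Differences that turned sign were small and did not pass: with probe sets averaged St3gal3 0.049, St6galnac2 -0.12, St8sia1 -0.038 and Agr2 -0.00505, and with an adult array left out Fut1 from -0.32 to 0.00099, Galnt3 from -0.084 to 0.45, Mgat3 from -0.012 to 0.063, Mgat4b from -0.44 to 0.24, St8sia1 from -0.092 to 0.12, Nanp from -0.096 to 0.29 and Agr2 from -0.036 to 0.11. Signal near background limits every difference of genes below it.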
